A study of Mus musculus with 48 samples.

Results

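The regions described here are ATAC-seq peaks that sit inside broad peaks with several summits. A summit is the base with the most signal in a called peak, and MACS2 adds a lower-case letter to the name of each summit where a called peak has more than 1. Of the 114043 merged peaks on which the study compared tumors, 26034 (22.8%) carry such a letter, and these were taken by name alone, without use of any measured change. They are called multi-summit peaks below, and the other 88009 single-summit peaks. All 26034 names were found in the summit list they came from, each beside at least 1 other lettered summit of its called peak.

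ATAC-seq uses the Tn5 transposase, which inserts sequencing adapters into DNA that is not wrapped in nucleosomes or otherwise closed. An open site between nucleosomes gives 1 summit, whereas a longer open stretch with positioned nucleosomes or several bound sites, as at many promoters and clustered enhancers, can give several. Nuclear factor I/B, the product of Nfib, is a transcription factor linked to metastasis and to wide opening of chromatin in mouse small cell lung cancer.

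Tumors of all 48 libraries had the genotype Trp53-/-;Rb1-/-;p130-/-;R26mG and were started with adenoviral Cre, either with the CMV promoter, which is active in many cell types (Ad-CMV-Cre), or with the neuroendocrine CGRP promoter (Ad-CGRP-Cre). The CMV comparison set 8 Nfib-amplified Ad-CMV-Cre libraries (2 lung tumors, 5 liver metastases and 1 lymph node metastasis) over 7 libraries without the amplification, all from lung tumors, so amplification and site cannot be fully told apart. All 8 amplified libraries and 0 of the 7 others were also marked as hyperaccessible, so amplification and that mark cannot be told apart. The CGRP comparison set 7 Ad-CGRP-Cre liver metastases over 11 Ad-CGRP-Cre lung tumors, 1 of them Nfib-amplified. All 7 metastases and 7 of the lung tumors came from preparation batch 2, and the other 4 lung tumors from batch 3. In the CMV comparison, 2 amplified and 2 other libraries came from batch 1, and 6 amplified and 5 other libraries from batch 3. A further 15 Ad-CMV-Cre libraries, marked as low in enrichment, were not compared. The labels do not state which libraries share an animal, so p-values measure the spread between libraries. Peaks had been called on merged libraries: a CMV pool of 19 (15 of them the libraries low in enrichment), a CGRP pool of 14 and a mixed pool of 15. The CMV pool is preparation batch 1, the CGRP pool batch 2 and the mixed pool batch 3. Contrasts between pools are therefore also contrasts between batches. The tables hold fitted values for each peak and no value for each library, so depth is unknown and no value within a batch could be had.

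Multi-summit peaks came from called peaks that were moderately wide. In the 3 summit lists together, 83267 of 529319 called peaks (15.7%) had several summits, and adjacent summits of 1 called peak lay a median of 377 bp apart. The distance was shortest in the CMV pool, with a median of 335 bp, against 390 bp in the mixed pool and 421 bp in the CGRP pool. The commonest 50 bp class of distance began at 200 bp in the CMV pool (14.5% of distances), at 250 bp in the mixed pool (11.4%) and at 400 bp in the CGRP pool (11.4%). From first to last summit, called peaks with several summits spanned a median of 432 bp and at most 5005 bp. Most of these stretches are therefore no longer than a single 501 bp merged peak.

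**Figure D1:**
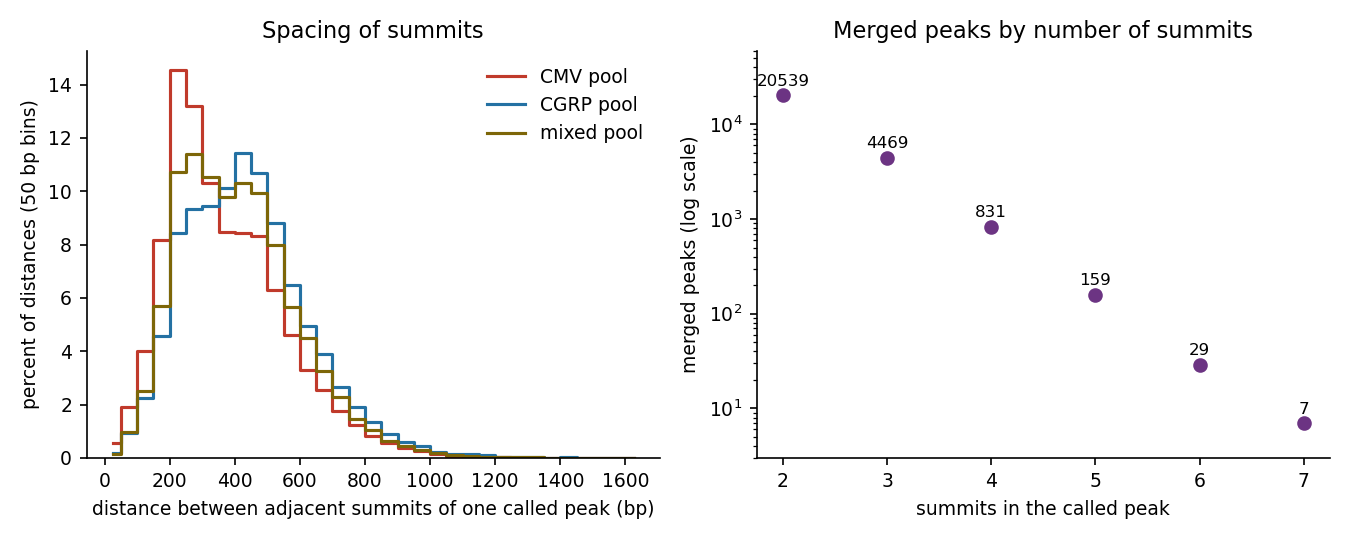
Left, percent of distances between adjacent summits of 1 called peak in 50 bp classes, 1 line for each pool. Right, number of multi-summit peaks (log scale) by the number of summits in their called peak; pairs of summits make up 20539 of 26034, and only 7 come from called peaks with 7 summits.

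Pairs of summits made up most of the set. Called peaks with 2 summits gave 20539 of the multi-summit peaks (78.9%), those with 3 gave 4469 (17.2%) and those with 4 gave 831. Another 159, 29 and 7 came from called peaks with 5, 6 and 7 summits. Called peaks with more summits were also the stronger ones: the median over peaks of the mean normalised count was 27.3 with 2 summits, 33.4 with 3, 40.3 with 4 and 45.8 with 5.

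Only part of each broad peak was carried into the comparisons. The 26034 multi-summit peaks belong to 24182 called peaks, which is 29.0% of the called peaks with several summits, against 19.7% of the 446052 called peaks with a sole summit. In 22363 of these 24182 called peaks (92.5%) 1 summit was kept, in 1786 there were 2 and in 33 there were 3. A multi-summit peak was the highest-scoring summit of its called peak in 16571 cases (63.7%) and a lesser one in 9463. Of the 28338 summits of the same called peaks that were not kept, 16860 (59.5%) had a 501 bp window that overlaps a kept summit of their own called peak, and 6184 (21.8%) overlapped only another merged peak. The remaining 5294 (18.7%) overlapped no merged peak, so each comparison leaves those stretches of broad peaks unmeasured.

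Multi-summit peaks carried more signal than single-summit peaks. Their median mean normalised count was 28.7 (quartiles 13.6 and 64.2), against 19.6 for single-summit peaks (quartiles 10.5 and 41.6). The order held in each pool, with medians of 23.5 against 17.7 in the CMV pool, 34.3 against 22.0 in the CGRP pool and 31.5 against 19.7 in the mixed pool. The CMV pool gave the most multi-summit peaks, 11451 of its 43201 merged peaks (26.5%), against 6260 of 30529 (20.5%) in the CGRP pool and 8323 of 40313 (20.6%) in the mixed pool. Because power to call a change rises with the count, single-summit peaks are set beside them below after weighting to the same distribution over 20 classes of mean count, and are then called single-summit peaks of like count. Those contrasts are descriptions and were not tested, since peaks of the same libraries are not replicates.

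Several summits in 1 pool went with several summits in another. Of the 26034 multi-summit peaks, 16249 (62.4%, 95% Wilson interval 61.8 to 63.0) had their nearest summit of another pool within 250 bp and in a called peak that also had several summits. The same was true of 12130 of 88009 single-summit peaks (13.8%, interval 13.6 to 14.01), and of 13.5% when these were weighted to the same pool and score decile. The intervals cover counting error only. A summit of any kind lay within 250 bp in another pool for 87.4% of multi-summit and 88.6% of single-summit peaks, so the gap was in the shape of the partner and not in its presence.

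The share depended on the pool and on the summit score. Among multi-summit peaks, 51.1% of those from the CMV pool, 71.7% from the CGRP pool and 71.1% from the mixed pool had several summits elsewhere, against 10.9%, 15.6% and 15.3% of single-summit peaks. From the lowest to the highest decile of score within a pool, the share climbed to 84.3% in the tenth, with 28.2% in the first. Single-summit peaks showed no such slope, at 14.97% in the tenth decile and 12.96% in the first. The libraries of the pools are different ones, although some may come from the same animals, and the CMV pool is mostly the set marked as low in enrichment.

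**Figure D2:**
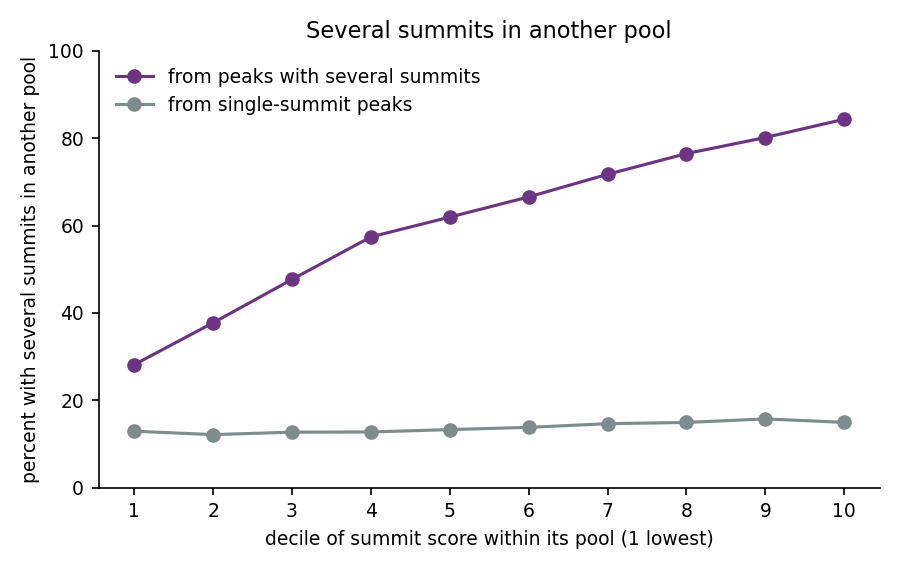
Percent of merged peaks whose nearest summit in another pool lies within 250 bp and belongs to a called peak with several summits, by decile of summit score within the pool. Multi-summit peaks climb from 28.2% to 84.3%, and single-summit peaks stay between 12.2% and 15.8%.

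A core of broad peaks was split in every pool. Of the multi-summit peaks, 17705 had a summit within 250 bp in all 3 pools, and of these 8877 (50.1%) lay in a called peak with several summits in each of the 3, 4892 in 2 pools and 3936 in 1. Peaks split in all 3 pools had a median mean count of 59.0, against 34.8 for those split in 2 and 28.7 for those split in 1. They were also wider, with a median span of 598 bp, against 496 bp and 410 bp.

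Among called peaks that gave a merged peak, those with the most summits have 6 or 7. On chromosome 2 of build mm9, 7 summits of the CMV pool run from 55288406 to 55290686, a span of 2280 bp, where the mixed pool has 4 summits and the CGRP pool 3. Of the 7, 2 were kept as merged peaks, and another merged peak between them was kept from the CGRP pool. The first, from 55288627 to 55289127, had a log2 fold change of 1.64 with Nfib amplification (SE 0.72, adjusted p = 0.04835) per the authors' deposited table. The CGRP pool's peak, from 55289568 to 55290068, had 1.88 (SE 0.59, adjusted p = 0.004959), and the last, from 55290220 to 55290720, had 1.97 (SE 0.75, adjusted p = 0.02233) per the authors' deposited table. All 3 merged peaks of this stretch were thus more accessible in Nfib-amplified libraries. In CGRP liver metastases the same 3 peaks had -0.58 (SE 0.68), -0.88 (SE 0.54) and -0.82 (SE 0.73) per the authors' deposited table, and none passed the threshold.

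Other regions of this kind changed less. On chromosome 16, 7 summits of the CMV pool span 2536 bp from 4558176, with 7 in the mixed pool and 6 in the CGRP pool. Of its 3 kept peaks, the middle one (4558464 to 4558964) was lowered with Nfib amplification, with a change of -0.48 on the log2 scale (SE 0.17, adjusted p = 0.01746) per the authors' deposited table. The left one (4557926 to 4558426) had -0.52 (SE 0.25) and the right one (4560013 to 4560513) had 0.36 (SE 0.32) per the authors' deposited table, and neither passed the threshold. On chromosome 10, 7 summits of the CGRP pool span 2943 bp from 19569003, and 1 of them was kept, from 19569065 to 19569565, with a change of 0.65 on the log2 scale (SE 0.25, adjusted p = 0.02739) per the authors' deposited table. A merged peak of the CMV pool in the same stretch (19571063 to 19571563) was also raised, at 0.66 (SE 0.21, adjusted p = 0.00665) per the authors' deposited table. On chromosome 9, 6 summits of the CGRP pool span 2771 bp from 85219299, with 6 in each of the other pools. Its kept peak from that pool (85221256 to 85221756) had 0.55 (SE 0.19, adjusted p = 0.01355) with Nfib amplification per the authors' deposited table. The 2 merged peaks kept there from the CMV pool had 0.21 (SE 0.22) and 0.10 (SE 0.16) per the authors' deposited table, and neither passed the threshold. The last region, with 7 summits in the CMV pool and 6 in each of the others, lies on the unplaced sequence 9_random. It gave 4 merged peaks, 1 from the CMV pool, 1 from the mixed pool and 2 from the CGRP pool, with -0.13 (SE 0.16), -0.09 (SE 0.14), -0.13 (SE 0.18) and -0.04 (SE 0.19) per the authors' deposited table, none past the threshold. Counting all pools, the 5 stretches hold 15 merged peaks, of which 6 were raised and 1 lowered with Nfib amplification. Over all tested peaks 34.3% were raised and 12.2% lowered, so these few peaks do not stand apart. The lowest adjusted p of the 15 in the CGRP comparison was 0.4758 per the authors' deposited table.

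**Figure D3:**
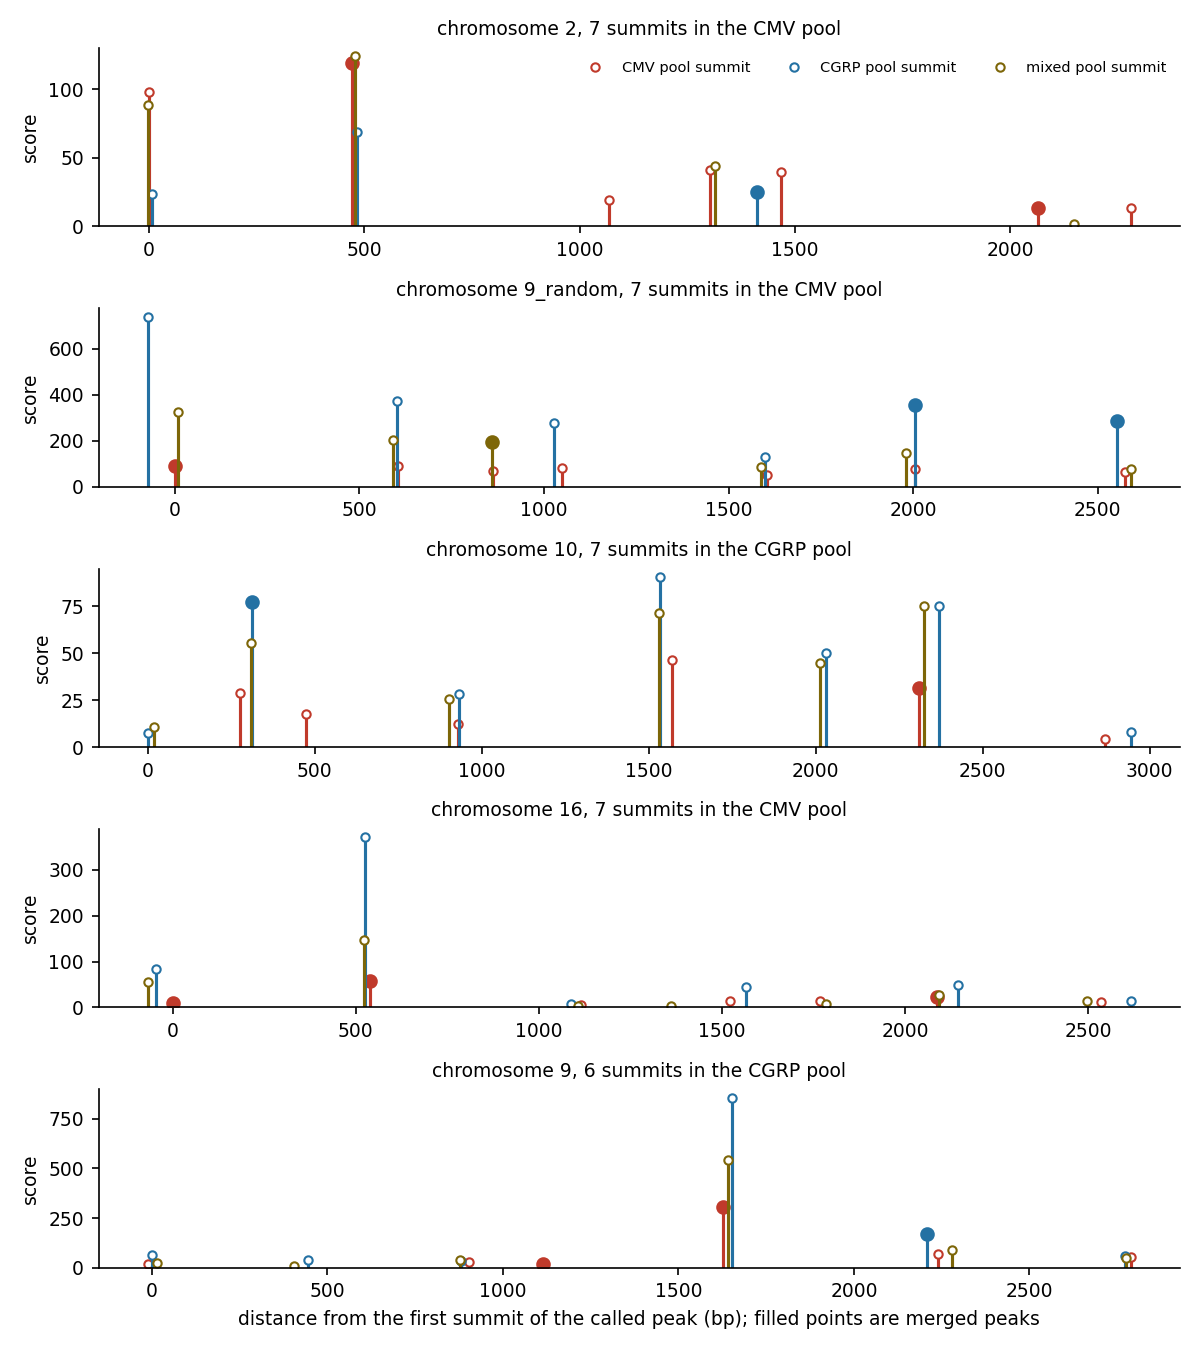
Score of each summit (within-pool units, not comparable between pools) against distance in bp from the first summit of the called peak, for the 5 called peaks with the most summits among those with a merged peak. Filled points are merged peaks, and colors give the pool; on chromosome 9 all 3 pools have 6 summits, with the strongest at like positions.

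In CMV tumors, the share of multi-summit peaks that opened with Nfib amplification was close to that of single-summit peaks of like count, and the share that closed was smaller on the authors' scaling. Of 26034 multi-summit peaks 26021 had an adjusted p, and 8865 of them (34.1%) were more accessible in Nfib-amplified libraries with an adjusted p below 0.05 per the authors' deposited table, where 34.3% of all tested peaks were. Single-summit peaks of like count stood at 34.0%. Another 2920 (11.2%) were less accessible in Nfib-amplified libraries, where 12.2% of all tested peaks and 14.6% of single-summit peaks of like count were. The difference from the single-summit peaks of like count was 0.0251 percentage points for raised peaks and -3.40 for lowered peaks.

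Changes of multi-summit peaks were also smaller in size. Their log2 fold changes had an SD of 1.47, against 1.66 in single-summit peaks of like count. For raised multi-summit peaks the median log2 fold change was 2.21 and the median SE 0.67, against a median change of 2.37 for raised single-summit peaks of like count. For lowered ones the medians were -1.11 and 0.34, against a median change of -1.49. Standard errors were slightly smaller in multi-summit peaks, with a median of 0.49 against 0.54.

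The balance of directions depends on the scaling. The median log2 fold change was 0.50 over multi-summit peaks and 0.60 over all tested peaks. With 0.60 subtracted from every peak, 4667 multi-summit peaks (17.9%) were higher and 7511 (28.9%) lower in Nfib-amplified libraries, against 19.9% and 29.4% of single-summit peaks of like count. On that scale the gap in lowered peaks was -0.54 percentage points. Against an absolute log2 fold change of 0.5, the second test per the authors' deposited table, 4450 multi-summit peaks (17.1%) were raised and 750 (2.88%) lowered, against 19.2% and 5.59% of single-summit peaks of like count.

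The pattern ran through the range of signal. In 10 of 10 deciles of mean count, a lower share of multi-summit than of single-summit peaks was lowered with Nfib amplification. In the weakest decile 1.45% against 2.16% were lowered, in the sixth 8.87% against 13.7% and in the strongest 21.7% against 25.04%. For raised peaks the order turned: the multi-summit share was the higher one in the 5 weaker deciles, 24.5% against 19.4% in the first, and the lower one in the 5 stronger deciles, 24.2% against 25.9% in the tenth. The near equality of the raised shares over all counts is thus a sum of opposite differences. A peak's mean count is averaged over libraries that include those compared, so its decile is not independent of its change.

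**Figure D4:**
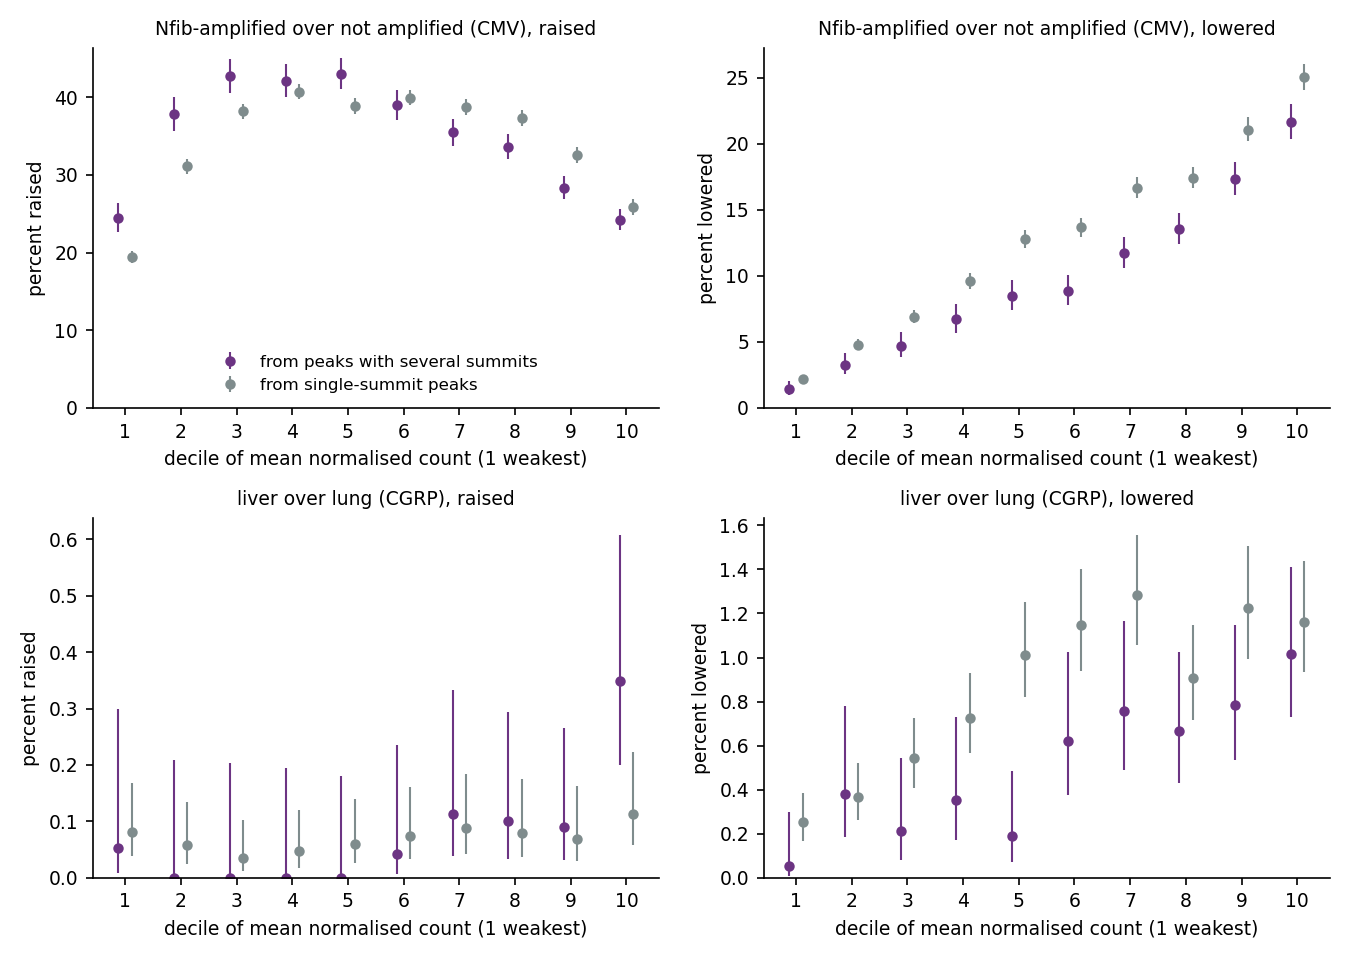
Percent of peaks raised (left) and lowered (right) by decile of mean normalised count, in the CMV comparison (top) and the CGRP comparison (bottom), with 95% Wilson intervals that cover counting error only. In the top right panel, multi-summit peaks lie below single-summit peaks in 10 of 10 deciles.

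The lower share of lowered peaks was seen in peaks from each pool. With Nfib amplification, 928 of 11447 multi-summit peaks of the CMV pool (8.11%) were lowered, against 11.1% of single-summit peaks of like count from that pool. The shares were 15.3% against 18.1% in the CGRP pool and 12.4% against 15.6% in the mixed pool. Raised shares were 39.8% against 39.1% in the CMV pool, 23.7% against 26.1% in the CGRP pool and 34.0% against 36.4% in the mixed pool. The raised share thus differed more between pools than between multi-summit and single-summit peaks of like count. The CMV and mixed pools hold the libraries of this comparison and the CGRP pool does not, so the pool is not independent of the change.

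The raised share was smaller in wider called peaks. By quartile of span, 36.3% of multi-summit peaks were raised with Nfib amplification in the narrowest (4 to 333 bp) and 36.4% in the next, against 32.9% and 34.6% of single-summit peaks of like count. In the third quartile 33.3% were raised and in the widest (687 to 2943 bp) 30.3%, against 34.7% and 33.9%. Lowered shares ran from 7.25% in the narrowest to 13.8% in the widest quartile, each below the 10.2% and 17.8% of single-summit peaks of like count. By number of summits the lowered share was 11.2% with 2, 11.7% with 3, 9.51% with 4 and 8.25% with 5 or more, while that of single-summit peaks of like count was 14.4%, 15.5%, 16.2% and 17.7%. The last class holds 194 tested peaks, of which 16 were lowered.

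Rank within the called peak went with the raised share. The highest-scoring summits were raised in 35.9% of cases, against 33.7% of single-summit peaks of like count, and the lesser summits in 30.8%, against 34.6%. Lowered shares were 11.9% against 15.6% for the highest-scoring summits and 9.97% against 12.9% for the lesser ones. A lesser summit was therefore below the single-summit peaks of like count in both directions.

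Peaks split in all 3 pools had the smallest raised share. Among multi-summit peaks with a summit in every pool, 25.6% of those split in 3 pools were raised with Nfib amplification, against 30.1% of single-summit peaks of like count that also had a summit in every pool. Of those split in 1 pool 30.3% were raised, against 27.8%. Lowered shares ran the other way, at 15.4% against 18.6% when split in 3 pools and 11.4% against 13.7% when split in 1. The median log2 fold changes were 0.12 when split in 3 pools, 0.37 in 2 and 0.42 in 1.

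The share changed widely among chromosomes, for multi-summit and single-summit peaks together. Among the larger autosomes, the raised share of multi-summit peaks was highest on chromosome 18 (586 of 1412, 41.5%) and lowest on chromosome 11 (256 of 1534, 16.7%) and chromosome 5 (354 of 1566, 22.6%). Single-summit peaks of like count had 41.9%, 19.5% and 24.6% on the same chromosomes. On 20 of 20 chromosomes the lowered share was below that of single-summit peaks of like count, from 21.6% against 23.99% on chromosome 11 to 1.01% against 3.54% on chromosome X.

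The largest gains with Nfib amplification lay at sites open in the CMV and mixed pools. All compared Nfib-amplified Ad-CMV-Cre libraries were part of those pools and none of the CGRP pool, so this pattern is not independent of the selection. Among multi-summit peaks with at least the median mean count, the top one was on chromosome 3 (145537128 to 145537628), at 6.10 on the log2 scale (SE 0.92, adjusted p = 5.594e-09) per the authors' deposited table. Its 2 summits lie 131 bp apart. Next came chromosome 13 (104220682 to 104221182) at 5.98 (SE 0.90) and chromosome 2 (48068237 to 48068737) at 5.92 (SE 0.86) per the authors' deposited table. Chromosome 2 (161377611 to 161378111) followed at 5.89 (SE 0.90), and chromosome 5 (12392641 to 12393141) at 5.59 (SE 0.82), per the authors' deposited table. Each of these 5 had a summit within 250 bp in the CMV and mixed pools and none in the CGRP pool. None passed the threshold in the CGRP comparison, where their log2 fold changes lay between -1.98 (SE 0.94) and 0.78 (SE 0.84) per the authors' deposited table.

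The 5 largest losses lay at sites with a summit in the CGRP and mixed pools, and some of them also had one in the CMV pool. Such summits are common. A summit of the CGRP pool lay within 250 bp of 62.2% of multi-summit peaks from the CMV pool and 76.9% from the mixed pool. One of the mixed pool lay near 77.9% of those from the CMV pool and 90.4% from the CGRP pool. Chromosome 11 (9588882 to 9589382) had -4.92 on the log2 scale (SE 0.68, adjusted p = 1.395e-10) with Nfib amplification per the authors' deposited table. Chromosome 10 (119625493 to 119625993) had -4.57 (SE 0.56, adjusted p = 6.279e-13) per the authors' deposited table, with several summits in the CGRP and mixed pools and no summit near it in the CMV pool. Chromosome 5 (113085791 to 113086291) had -4.40 (SE 0.52) and chromosome 11 (75944078 to 75944578) had -4.27 (SE 0.55) per the authors' deposited table. The fifth largest was chromosome 9 (60896992 to 60897492), at -4.24 (SE 0.58) per the authors' deposited table. Of the 5, only the first was also lowered in CGRP liver metastases.

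In CGRP tumors, few multi-summit peaks differed between liver metastases and lung tumors. An adjusted p was given for 24532 multi-summit peaks and was missing for 1502. Of these, 23 (0.0938%) were more accessible in liver metastases per the authors' deposited table, where 0.0752% of all tested peaks were, and 139 (0.567%) were less accessible, where 0.779% of all tested peaks were. Single-summit peaks of like count stood at 0.0745% and 0.928%. At an unadjusted p under 0.05, 2389 multi-summit peaks (9.74%) passed. The share of single-summit peaks at that threshold is not given here, so the 9.74% cannot be read as particular to multi-summit peaks.

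A smaller share of lowered peaks was thus also seen here, on far fewer calls. The lowered share of multi-summit peaks was below that of single-summit peaks in 9 of 10 deciles of mean count. By pool, 0.488% against 0.800% were lowered in the CMV pool, 0.589% against 1.13% in the CGRP pool and 0.649% against 0.886% in the mixed pool. Raised peaks gathered among the strongest: 12 of the 23 lay in the highest decile of mean count, where 0.348% of multi-summit and 0.113% of single-summit peaks were raised. Chromosome 5 held 7 of the 23, and without it 16 of 23049 multi-summit peaks were raised. The raised share on chromosome 5 was 0.472% of multi-summit peaks and 0.430% of single-summit peaks of like count, so peaks of both kinds gathered there. For raised multi-summit peaks the median change was 1.11 on the log2 scale (median SE 0.30) and for lowered ones -1.16 (median SE 0.31), against 1.08 and -1.58 in single-summit peaks of like count.

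Of the raised sites, 2 belong to 1 stretch on chromosome 2. A merged peak named from the CMV pool, from 109518070 to 109518570, was raised by 2.03 in log2 units (SE 0.46, adjusted p = 0.004301) in liver metastases per the authors' deposited table. Its neighbor from 109517359 to 109517859, named from the CGRP pool, had 1.55 (SE 0.37, adjusted p = 0.008249) per the authors' deposited table. Several summits were found there in all 3 pools. The largest rise was on chromosome 16 (51047951 to 51048451), at 2.23 (SE 0.57, adjusted p = 0.02) per the authors' deposited table. Chromosome 9 (92432943 to 92433443) had 1.84 (SE 0.51) and chromosome 4 (149283861 to 149284361) had 1.72 (SE 0.45) per the authors' deposited table.

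The lowered sites reached larger changes. Chromosome 11 (9588882 to 9589382) had -5.44 in liver metastases (SE 0.65, adjusted p = 7.264e-12) per the authors' deposited table. Chromosome 14 (115980637 to 115981137) had -3.24 (SE 0.77, adjusted p = 0.008146) and chromosome 6 (109214482 to 109214982) had -2.88 (SE 0.65, adjusted p = 0.004014) per the authors' deposited table. Chromosome 14 (37303240 to 37303740) had -2.81 (SE 0.75, adjusted p = 0.03136) in liver metastases but 2.83 (SE 0.76, adjusted p = 0.00101) with Nfib amplification per the authors' deposited table, so the same peak moved in opposite directions in the comparisons. Chromosome 11 (9316212 to 9316712) had -2.80 (SE 0.61) per the authors' deposited table.

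Few multi-summit peaks were called in both comparisons. Of the 24532 multi-summit peaks tested in both, 42 were lowered in both, which is 30.2% of the 139 lowered in CGRP liver metastases and 1.45% of the 2900 lowered with Nfib amplification, where 11.8% of the 24532 were lowered with Nfib amplification. Among single-summit peaks, 341 were lowered in both, or 50.1% of 680 and 3.13% of 10897, where 13.5% of those tested in both were lowered with Nfib amplification. Another 8 multi-summit peaks were raised in both, which is 34.8% of 23 and 0.0937% of 8535, and that equals the 34.8% of all 24532 raised with Nfib amplification. Of the rest, 19 were raised with Nfib amplification and lowered in liver metastases, and 5 the reverse.

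Of the sites called the same way in both comparisons, those with the smallest adjusted p were picked to be named here. Their values do not stand for the rest of these sites. On chromosome 11, the peak from 9916716 to 9917216 had -4.28 (SE 0.76) with Nfib amplification and -3.84 (SE 0.66) in liver metastases per the authors' deposited table. This peak had a mean count of 16.5, below the median of 28.7 over multi-summit peaks. It lies on the same chromosome as the peak at 9588882, which had the largest loss in both comparisons among multi-summit peaks with at least the median mean count. Chromosome 1 (57831708 to 57832208), the fourth of 4 summits, was raised by 1.04 (SE 0.19, adjusted p = 1.748e-06) with Nfib amplification and by 0.71 (SE 0.17, adjusted p = 0.00668) in liver metastases per the authors' deposited table. Chromosome 6 (95067562 to 95068062), a strong peak with a mean count of 480, was raised by 0.42 (SE 0.11) and 0.41 (SE 0.10) per the authors' deposited table.

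Consecutive kept summits of 1 called peak seldom changed in opposite directions with Nfib amplification. A pair is 2 kept summits with no other kept summit between them, so a summit that was not kept can lie between. There were 1850 such pairs, a median of 634.5 bp apart and at least 502 bp, since merged peaks do not overlap. Both summits were raised in 372 pairs (20.1%) and both lowered in 113 (6.11%), so 485 (26.2%) changed the same way. Only 1 of the 2 summits was called in 625 pairs (33.8%), neither in 727 (39.3%), and 13 were called in opposite directions. Over all summits of these pairs, 29.7% were raised and 14.1% lowered. The difference between the summits had a median size of 0.41 on the log2 scale, and its median SE was 0.49. Divided by their SEs, the differences had an SD of 1.44, where independent errors of that size alone would give 1. A two-sided z test of the difference, with Benjamini-Hochberg adjustment over the pairs, called 92 of 1850 pairs different (4.97%), and 284 passed at an unadjusted p under 0.05. The SE of a difference combined the SEs of both summits as if independent, which leaves out the covariance of summits measured in the same libraries. With a correlation of 0.5 between the 2 errors, 280 pairs were called different.

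A call at only 1 summit of a pair is not a test of the difference between them. Of the 625 pairs with 1 summit called, 71 passed that test, and 192 passed with a correlation of 0.5 between the errors. Of 498 pairs with both summits called, 13 (2.61%) were called in opposite directions, and all 13 passed the test, with differences of 1.12 to 3.15 on the log2 scale. Neither the stronger nor the weaker summit led: the log2 fold change of the weaker summit minus that of the stronger had a median of 0.05, and the weaker summit was the higher one in 44 of the 92 pairs that differed. In the 33 called peaks with 3 kept summits, 4 had all 3 raised, 1 had some raised and some lowered, and 11 had none called.

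In CGRP liver metastases, 1 of 1850 pairs differed (0.0541%), and 56 passed at an unadjusted p under 0.05. The median size of the difference was 0.23, with a median SE of 0.42. Divided by their SEs, these differences had an SD of 0.87, below the 1 that independent errors of that size alone would give. A call was made at 1 summit in 25 pairs and at neither in the other 1825.

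**Figure D5:**
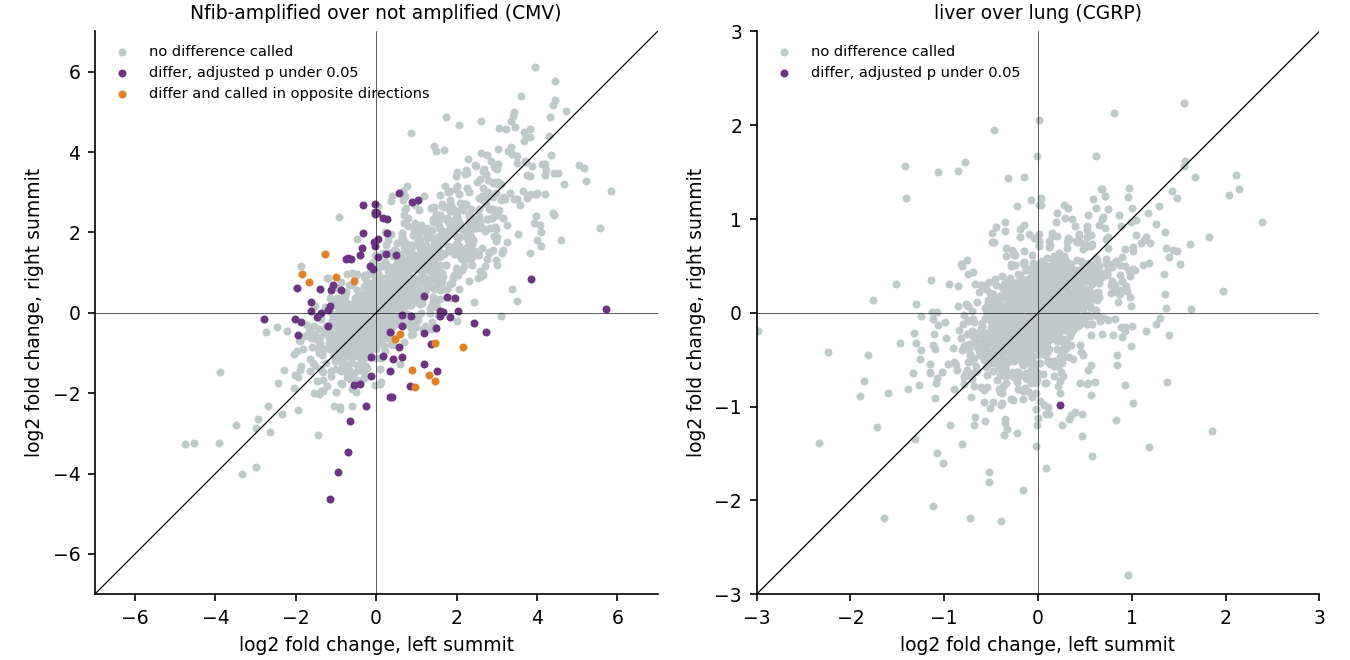
Log2 fold change of the right against the left summit for 1850 pairs of adjacent kept summits of 1 called peak, Nfib-amplified over not amplified (left) and liver metastases over lung tumors in CGRP tumors (right). Purple and orange points are the 92 and 1 pairs whose difference passed the test, orange ones with summits called in opposite directions; the black line marks equal change.

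Summits of 1 called peak were set beside neighboring single-summit peaks in 3 classes of distance. At 501 to 600 bp, the log2 fold changes with Nfib amplification correlated at r = 0.82 over 732 pairs of summits of 1 called peak, and at r = 0.66 over 392 pairs of single-summit neighbors. At 601 to 800 bp r was 0.77 over 758 pairs and 0.65 over 1510 pairs, and at 801 to 1500 bp it was 0.67 over 295 pairs and 0.50 over 5611 pairs. In the CGRP comparison r was 0.43 against 0.34, 0.40 against 0.36 and 0.34 against 0.28 in the same classes. These are correlations across sites of the same libraries and are given as descriptions. The summits of 1 called peak also had more signal, with a median mean count of 48.4 against 21.4 at 601 to 800 bp, and smaller SEs of the difference, 0.49 against 0.79, and the part of this in the higher r was not tested. With adjustment over all neighboring peaks, the share of pairs that differed with Nfib amplification was 6.28% against 12.5% at 501 to 600 bp, 9.23% against 13.05% at 601 to 800 bp and 10.2% against 20.8% at 801 to 1500 bp. Both peaks were called in the same direction in 29.2% against 20.9%, 24.5% against 24.6% and 24.4% against 22.4% of pairs.

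The pair with the largest z in size was called in opposite directions at its 2 summits. On chromosome 15, the summit from 37121824 to 37122324 was raised with Nfib amplification, at 1.45 (SE 0.34, adjusted p = 0.000157), per the authors' deposited table. The next summit, 593 bp to its right from 37122417 to 37122917, was lowered, at -1.69 (SE 0.42, adjusted p = 0.0003288), per the authors' deposited table. This right summit has a mean count of 20.9, below the median of 28.7 over multi-summit peaks. The difference, right minus left, was -3.15 (SE 0.54, adjusted p = 8.51e-06 in the z test). Several summits were found at both places in all 3 pools.

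Other pairs lost or gained signal at 1 end. On chromosome 11, the left summit from 95436262 to 95436762 was raised at 5.71 (SE 0.93), while the one 843 bp to its right had 0.09 (SE 0.38), per the authors' deposited table. The left one had no summit near it in the other pools. Its mean count was 12.4, below the median of 28.7 over multi-summit peaks. On chromosome 16, the left summit from 30187001 to 30187501 was lowered at -2.03 (SE 0.30) and the one 980 bp to its right had -0.16 (SE 0.14), per the authors' deposited table. Chromosome 12 gave the mirror image, with 0.38 (SE 0.28) from 113091181 to 113091681 and -2.09 (SE 0.37) at the summit 547 bp to the right, per the authors' deposited table. On chromosome 18, the left summit from 35835008 to 35835508 had -0.04 (SE 0.38) and the right one, 773 bp away, was raised at 2.45 (SE 0.28), per the authors' deposited table. The differences of these 4 pairs, right minus left, were -5.62 (SE 1.00), 1.86 (SE 0.34), -2.47 (SE 0.46) and 2.49 (SE 0.47), and each passed the z test.

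Among pairs called in opposite directions, the second largest difference was on chromosome 16. The left summit from 23784354 to 23784854 had 2.17 (SE 0.55) with Nfib amplification and the right one, 873 bp away, had -0.86 (SE 0.33), per the authors' deposited table. The right one was also lowered in CGRP liver metastases, at -1.24 (SE 0.28, adjusted p = 0.004756) per the authors' deposited table. On chromosome 3 the summits at 103269050 and 103269948 had 1.32 (SE 0.46) and -1.55 (SE 0.43) per the authors' deposited table. On chromosome 5 the order was turned, with -1.83 (SE 0.47) at 5260408 and 0.98 (SE 0.28) at 5261885 per the authors' deposited table. On chromosome 18, the summit at 61102290, which was lowered at -1.83 (SE 0.70), had a mean count of 5.81, so the call beside its raised neighbor at 61101735 (0.98, SE 0.30) rests on little signal per the authors' deposited table.

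The single pair that differed in CGRP liver metastases lies on chromosome 6. The summit from 108732822 to 108733322 had 0.24 (SE 0.12), and the one 1244 bp to its right, from 108734066 to 108734566, was lowered at -0.98 (SE 0.19, adjusted p = 0.0003982), per the authors' deposited table. The difference, right minus left, was -1.22 (SE 0.23, adjusted p = 0.000207 in the z test). The same right summit was lowered with Nfib amplification, at -1.08 (SE 0.23), while the left one had 0.17 (SE 0.15), per the authors' deposited table.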

How the data were processed

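ATAC-seq was made from lysed tumor cells with Tn5 transposase and a modified Nextera kit, per the labels' protocols. The submitters' processing notes list Bowtie2, MACS2, DESeq2 and mm9, without versions; the handling of duplicates and of the Tn5 offset was not given in the sources used here. The authors deposited 3 summit lists from merged libraries, 1 list of merged peaks and 2 comparison tables. Summit scores as deposited start at the −log10 of 0.05, were therefore taken for −log10 of q, and rank summits within a list only. All 114043 merged peaks of the deposited list are 501 bp long and centred on a summit. The mean normalised count is a signal averaged by the authors and is the same in both tables. Log2 fold changes, SEs, p-values and adjusted p-values come from the authors, in columns named like DESeq2 results per the file headers, and the direction of each comparison rests on the table names. Each deposited Wald score is the log2 fold change over its SE within 5.78e-11. A second deposited set of p-values was taken for a test that the absolute log2 fold change exceeds 0.5.

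A peak counted as raised or lowered at the authors' adjusted p under 0.05. Which covariates entered the authors' fit was not given in the sources used here, and the description of 1 CMV library without amplification does not list the comparison table. Shares of single-summit peaks were weighted to the multi-summit peaks over 20 quantile classes of mean count. The sites named are, in each comparison, the 5 raised and 5 lowered multi-summit peaks with the largest change among those whose mean count reaches their median of 28.7, the 5 called peaks with the most summits among those that gave a merged peak (and the other merged peaks in their stretches, added after their values were seen), the pairs with the largest z or opposite calls, and the peaks called in both comparisons with the smallest adjusted p. The multi-summit peaks and these rules were chosen with earlier results of these data known. The annotation at hand is of another build, so no gene or sequence was assigned, the planned marker lists were not analysed here, and coordinates are 1-based mm9. The pair test and the weighting were tested on simulated data. Errors of both summits of a pair were drawn independently there, so correlated errors were not covered. Python 3.11.15 was used with matplotlib 3.10.9, scipy 1.17.1, pandas 2.3.3 and numpy 2.4.6. Alternatives covered thresholds, the second test, centring, mean count minimum, summit number, pool, distance and chromosomes.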

Additional observations from a re-analysis of the deposited data

Results flagged for a closer look

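Signal outside the comparisons was found in the called peaks with the most summits. All 8 called peaks with 8 or more summits, which lie outside the main measurement, have no merged peak and so no value in either comparison. On chromosome 1, all 3 pools have such a peak at the same place, from 24618618 to 24622763 in the CGRP pool, with 12 summits there, 9 in the mixed pool and 10 in the CMV pool. The highest summit scores of these 3 called peaks were 37365, 34818 and 42395. On chromosome 17, the pools have 10 (CMV), 8 (CGRP) and 10 (mixed) summits between 39980229 and 39985433, with highest scores of 444, 1560 and 1096. The other 2 belong to the CMV pool alone, with 8 summits each, on chromosome 8 from 56205746 to 56208782 and on chromosome 9 from 16304253 to 16306593.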

How the results depend on the processing

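Of 91 alternatives for 10 results, 46 stayed within the spread or within 1.5 times the main count and 45 did not; none turned the direction of the gap in lowered shares. At an adjusted p under 0.01, 1851 multi-summit peaks were lowered with Nfib amplification, 5 raised and 57 lowered in CGRP liver metastases, and 38 pairs differed with Nfib amplification; at 0.1, CGRP counts were 68 and 236. The gaps to single-summit peaks of like count, in percentage points, were -1.30 (raised, Nfib), -2.89 (lowered, Nfib) and -0.205 (lowered, CGRP) at 0.01, and -0.548 (lowered, CGRP) at 0.1. The second test gave 4450 and 750 with Nfib amplification, 0 and 4 in CGRP (DESeq2; 89 and 190 at an unadjusted p under 0.05), and gaps of -2.08, -2.70 and -0.0589. Centring gave 4667 and 7511, and gaps of -2.01 and -0.54 with Nfib amplification. A mean count of at least 20 left 5139 raised with Nfib amplification, with gaps of -2.60 and -4.11. Called peaks with 3 or more summits held 1813 raised and 619 lowered with Nfib amplification and 6 and 23 in CGRP, with gaps of -1.26, -4.37 and -0.532. One peak for each called peak moved the raised gap to 0.64; weighting within the pool gave -1.07 and -2.98, and within the same presence of summits in the pools -1.27 and -2.80. The raised gap with Nfib amplification thus has no settled sign.

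Pairs that differed with Nfib amplification numbered 32 by Benjamini-Yekutieli adjustment, 280 with a correlation of 0.5 between errors and 146 with adjustment over all neighboring peaks, an alternative added after seeing the data, as was leaving out chromosome 5. In CGRP they numbered 13 with that correlation, 0 over all neighboring peaks (56 at an unadjusted p under 0.05) and 0 among the 1679 pairs at most 1000 bp apart (46 at an unadjusted p under 0.05). Several summits in another pool were found for 56.9% of multi-summit peaks within 100 bp, 60.6% at a score of at least 5, and 74.0% with 3 or more summits. No paired analysis was possible because the tables hold no value for each library; for the same reason no library could be left out, and depth is unknown. Scores and peaks come from merged libraries, so no spread between libraries stands behind the number of summits.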
